A study of Mus musculus with 6 samples.

Results

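The genes described here are the cytochrome P450 genes of mouse lip tissue, taken as the gene symbols that read Cyp, 1 digit, a letter and a digit. Cyp1a1, Cyp1b1 and pseudogenes were left out, and a gene entered the test where 3 or more libraries held it at 1 CPM or above (CPM, counts scaled to the size of the library). Of the 26814 symbols counted, 50 had such a name, and 26 of these were among the 15009 genes tested. P450 genes whose family number has 2 digits, such as Cyp17a1, are not members under this reading and are given for comparison only. The mRNA came from the top lip of adult female C57BL/6J mice without any treatment. The 3 KO libraries were from mice homozygous for the Gtf2ird1 tm1Hrd allele, a germline disruption of a transcription factor gene that lies in the region deleted in Williams-Beuren syndrome, and the 3 WT libraries were from wild type mice. The lip was homogenised whole, so each library mixes epidermis, hair follicles, glands, dermis and muscle, and a lower level can mean fewer cells of a type or less RNA per cell, which cannot be told apart in these data.

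Cytochrome P450 enzymes are haem proteins of the endoplasmic reticulum that insert an oxygen atom into small lipophilic molecules, using electrons that P450 oxidoreductase takes from NADPH. In skin they act on drugs and environmental chemicals, on retinoic acid, sterols and steroids, and on fatty acids, including the arachidonic acid and the very long chain fatty acids from which the lipids of the epidermal barrier are built. Families 2 and 3 hold most of the foreign-compound enzymes, family 4 the fatty acid hydroxylases and family 7 enzymes that hydroxylate sterols.

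The libraries held 20164081 to 29491767 counts, so that 3 counts corresponded to 0.0986 to 0.154 CPM. Gtf2ird1 itself measured 70.2 to 78.2 CPM in the WT libraries and 144 to 166 CPM in the KO libraries (log2 fold change 1.11, SE 0.13, adjusted p = 0.0018). Total counts of the gene were thus higher, not lower, under the KO label. The authors report that tail biopsies were taken to check the genotypes. KO and WT are used below as the names of the labelled libraries. Counts per gene do not show whether the transcripts counted in the KO libraries are intact. Epidermal markers were abundant, with Krt5 at 4331 to 5372 CPM, whereas 5 liver markers summed to at most 0.960 CPM in any library. WT replicate 1 stood apart in Krt13 and Krt4, keratins of mucosal epithelium, with 2805 and 1987 CPM against at most 115 CPM in any other library. Without KO replicate 3, 4891 genes passed the test, against 971 with it.

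Of the 26 P450 genes, 4 fell and 1 rose in the KO libraries at an adjusted p below 0.05 (edgeR quasi-likelihood test), and 21 did not pass. Cyp2w1, Cyp2f2, Cyp2s1 and Cyp2d22 were the genes that fell and Cyp7b1 the gene that rose. That is 19.2% of the P450 genes tested, where 6.47% of all tested genes passed, 4.38% higher and 2.09% lower. The log2 fold change (KO against WT) was negative for 17 P450 genes and positive for 9, with a median of -0.32 and quartiles of -0.84 and 0.07, beside a median of -0.02 and quartiles of -0.33 and 0.28 over all tested genes, 52.0% of which were negative. With the exact test of edgeR, which takes no account of the uncertainty in each gene's dispersion, 9 P450 genes passed (34.6%), 7 lower and 2 higher, where 14.9% of all tested genes passed, 7.76% higher and 7.15% lower. The KO and WT libraries did not overlap for 8 P450 genes (30.8%), a share close to that of all tested genes, 31.5%. Without KO replicate 3, 9 of 25 P450 genes passed by the quasi-likelihood test, where 33% of all genes tested did, a similar share. Without KO replicate 1, 2 P450 genes passed and 2.17% of all genes.

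**Figure D1:**
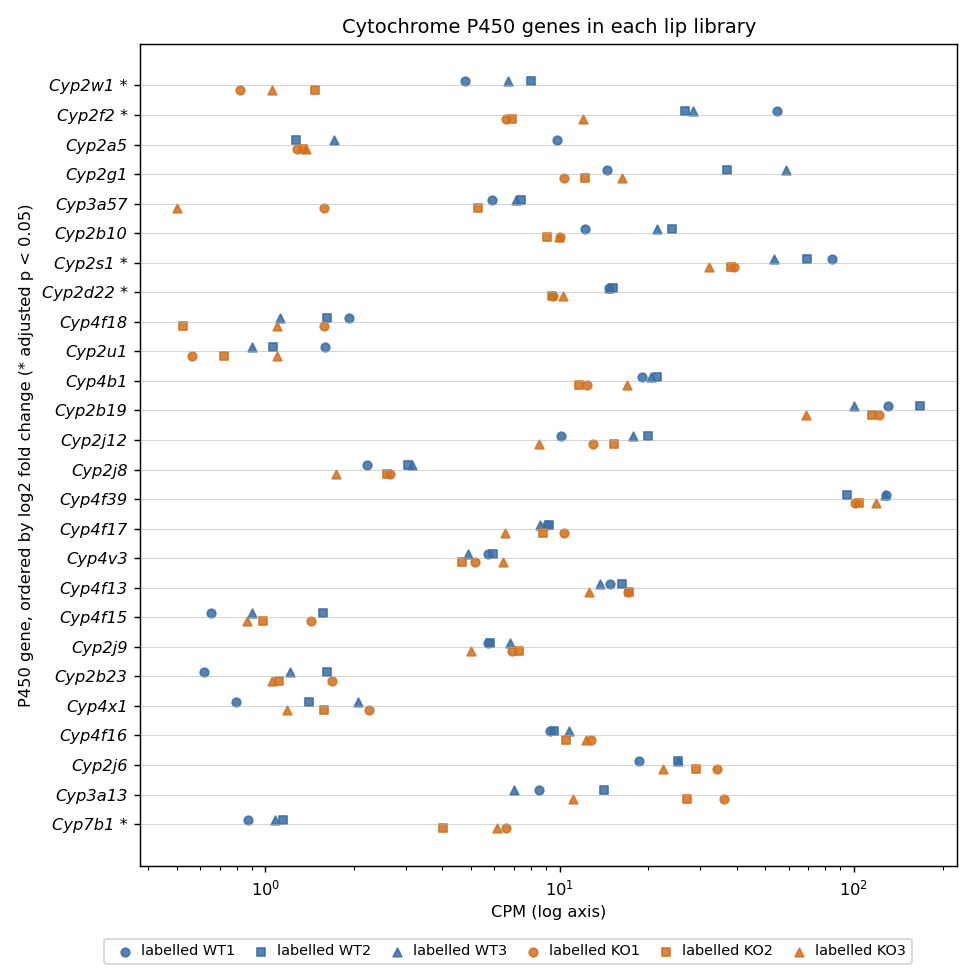
Level of each of the 26 tested P450 genes in the 6 lip libraries (CPM, log axis), ordered by log2 fold change, with WT and KO libraries in separate colours and an asterisk where the adjusted p was below 0.05. Cyp2w1 and Cyp2f2, at one end of the order, and Cyp7b1, at the other, show the WT and KO libraries well apart, and the genes between them mostly overlap.

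Cyp2w1, an orphan P450 known from the developing gut and from colon tumours, had the lowest log2 fold change of the P450 genes. It lies on chromosome 5 (139352617 to 139357033, plus strand, GRCm38). Its level was 4.75, 7.99 and 6.70 CPM in the WT libraries and 0.819, 1.48 and 1.05 CPM in the KO libraries. Every KO library was below every WT library, and the highest KO value was well under the lowest WT value. The mean fell from 6.48 ± 1.63 to 1.12 ± 0.335 CPM (SD, n = 3), which is 5.67-fold lower (log2 fold change -2.50, SE 0.30, adjusted p = 0.00237), and the call held when any 1 of the 6 libraries was left out (-2.72 to -2.27).

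Cyp2f2, the naphthalene-activating P450 best known from airway club cells and nasal mucosa, was the next lowest and lies on chromosome 7 (27119909 to 27133660, plus strand). It measured 54.8, 26.6 and 28.3 CPM in the WT libraries and 6.55, 6.90 and 12.03 CPM in the KO libraries. The groups did not overlap, and WT replicate 1, the library with the high mucosal keratins, was well above the other WT libraries in Cyp2f2. The mean fell from 36.5 ± 15.8 to 8.49 ± 3.06 CPM, 4.31-fold (log2 fold change -2.11, SE 0.35, adjusted p = 0.0126). Without WT replicate 1 the log2 fold change was -1.69 (adjusted p = 0.0329), and the call was lost without KO replicate 1 (adjusted p = 0.0544) or KO replicate 2 (0.091). A list of 10 markers of airway and nasal epithelium summed to 3.61 to 5.67 CPM in the WT libraries and 1.78 to 2.66 CPM in the KO libraries, with 2 markers at 0 in all libraries and only the olfactory marker Omp reaching the filter, and the part of such cells in the Cyp2f2 result was not tested. Gm15883 overlaps Cyp2f2 on the opposite strand, and the use of strand in the counting is not given in the sources used here.

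Cyp2s1, a dioxin-inducible P450 of epithelia that can act on retinoic acid, lies in the same gene cluster on chromosome 7, at the other end of its tested genes (25802475 to 25816913, minus strand). Its level was 84.2, 69.3 and 53.5 CPM in the WT libraries and 39.2, 38.3 and 32.1 CPM in the KO libraries. The groups did not overlap, and the KO libraries lay close together while the WT libraries were spread. The mean fell from 69.0 ± 15.4 to 36.5 ± 3.90 CPM (log2 fold change -0.92, SE 0.19, adjusted p = 0.0292). The call held without WT replicate 3 or KO replicate 3 and was lost without any of the other 4 libraries (log2 fold change -1.08 to -0.75 over the 6). Gm26707 and Gm45226 overlap Cyp2s1 on the opposite strand.

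Cyp2d22, the mouse relative of the drug-metabolising CYP2D enzyme of human liver, is on chromosome 15 (82370527 to 82380260, minus strand). It showed the narrowest spread of the genes that fell, with 14.8, 15.1 and 14.8 CPM in the WT libraries and 9.52, 9.40 and 10.2 CPM in the KO libraries. The libraries of each genotype lay within 1 CPM of each other and the groups were clearly separate. The mean fell from 14.9 ± 0.216 to 9.72 ± 0.456 CPM (log2 fold change -0.61, SE 0.14, adjusted p = 0.0442). The adjusted p was close to the threshold, and of the 6 fits that left out 1 library the call held only without KO replicate 3 (log2 fold change -0.65 to -0.53 over the 6).

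Cyp7b1, the oxysterol and steroid hydroxylase of the alternative bile acid pathway, was the P450 gene that rose and lies on chromosome 3 (18071950 to 18243338, minus strand). It measured 0.871, 1.15 and 1.08 CPM in the WT libraries and 6.55, 4.01 and 6.13 CPM in the KO libraries. All KO libraries were several times above all WT libraries, which were near the filter of 1 CPM. The mean rose from 1.03 ± 0.144 to 5.56 ± 1.36 CPM, 5.36-fold (log2 fold change 2.42, SE 0.27, adjusted p = 0.00168), and the call held without any 1 of the 6 libraries (2.31 to 2.67).

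**Figure D2:**
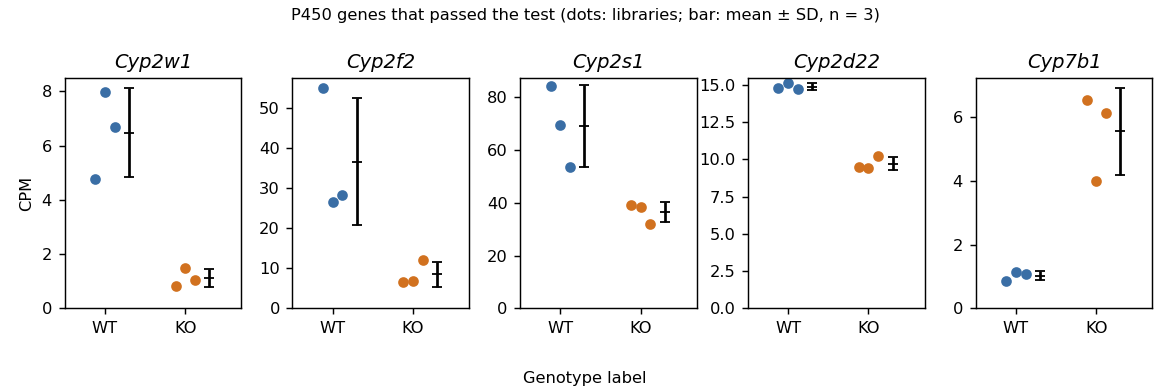
Level (CPM, linear axis from 0, a separate scale for each gene) of the 5 P450 genes that passed the test, with 1 dot per library, a bar at the mean and an error bar of 1 SD (n = 3 per genotype). Dots of the 2 genotypes do not overlap for any of the 5 genes, and Cyp2d22 shows the smallest difference with the tightest dots.

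The sequence upstream of the start site is shown for the 3 genes that fell whose start the RefSeq table covers (GRCm38.p6), since a promoter is where a change of transcription would act, and for Cyp2j12 as the P450 gene whose window holds GGATTA, the core letters that GTF2IRD1 is known to bind. Windows of 300 bases, 250 before and 50 after the start, were searched for GGATTA and for GCGTG, the core of the element bound by the aryl hydrocarbon receptor, each on both strands. The 250 bases before the start are printed 5′ to 3′ on the strand of the gene, with matches in capitals, for Cyp2w1 (chr5:139352366-139352615, plus), Cyp2f2 (chr7:27119705-27119954, plus), Cyp2s1 (chr7:25816526-25816775, minus) and Cyp2j12 (chr4:96141153-96141402, minus). The start is that of the RefSeq record. The gene spans given above are from GENCODE, whose start lies farther upstream for Cyp2s1 and Cyp2f2, so the Cyp2s1 window lies inside its GENCODE span and the Cyp2f2 window overlaps its own.
Cyp2w1: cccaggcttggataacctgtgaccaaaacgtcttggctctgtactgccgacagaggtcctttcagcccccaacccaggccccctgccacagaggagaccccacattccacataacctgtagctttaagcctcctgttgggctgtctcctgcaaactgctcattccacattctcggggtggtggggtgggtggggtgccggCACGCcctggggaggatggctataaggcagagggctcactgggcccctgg
Cyp2f2: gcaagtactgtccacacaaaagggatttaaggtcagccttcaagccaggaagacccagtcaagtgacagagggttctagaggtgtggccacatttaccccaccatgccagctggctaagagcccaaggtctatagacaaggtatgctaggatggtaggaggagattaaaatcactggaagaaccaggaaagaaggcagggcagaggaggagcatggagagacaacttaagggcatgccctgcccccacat
Cyp2s1: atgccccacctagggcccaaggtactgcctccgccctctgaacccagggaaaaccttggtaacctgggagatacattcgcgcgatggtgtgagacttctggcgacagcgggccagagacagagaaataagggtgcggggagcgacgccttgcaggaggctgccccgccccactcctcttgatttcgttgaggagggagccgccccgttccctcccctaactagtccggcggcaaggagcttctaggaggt
Cyp2j12: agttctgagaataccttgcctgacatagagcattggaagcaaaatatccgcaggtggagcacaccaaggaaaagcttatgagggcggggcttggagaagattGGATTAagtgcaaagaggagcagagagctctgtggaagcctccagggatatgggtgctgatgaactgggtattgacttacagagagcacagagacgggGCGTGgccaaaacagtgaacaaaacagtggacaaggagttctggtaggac

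RefSeq windows were found for 20 of the 26 P450 genes, and Cyp2d22 and Cyp7b1 were not among them. GGATTA was present in 1 of the 20 windows, that of Cyp2j12, and in 8.137% of 27025 genes with a window. GCGTG was present in 7 of the 20 windows, those of Cyp2b10, Cyp2j12, Cyp2j9, Cyp2w1, Cyp4f16, Cyp4f39 and Cyp4v3, and in 35.15% of genes with a window. In Cyp2w1 it stands on the minus strand, near the start site, and in Cyp2f2 and Cyp2s1 neither set of letters occurred in the window. Cyp2j12 did not pass the test (log2 fold change -0.38, SE 0.30, adjusted p = 0.423).

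A further 4 P450 genes passed with the exact test of edgeR and not with the quasi-likelihood test, and each had a library that stood away from its group or a wide WT spread. Cyp2g1, a P450 of olfactory mucosa, measured 14.4, 36.9 and 58.9 CPM in the WT libraries and 10.3, 12.2 and 16.2 CPM in the KO libraries. The lowest WT library, replicate 1, fell within the KO range. The log2 fold change was -1.51 (SE 0.45, adjusted p = 0.0795 and, with the exact test, 0.0018), and it ran from -1.89 without WT replicate 1 (adjusted p = 0.0171) to -0.99 without WT replicate 3 (adjusted p = 0.240). Cyp2b10, the phenobarbital-inducible target of the constitutive androstane receptor, measured 12.2, 24.1 and 21.4 CPM against 10.03, 9.07 and 9.92 CPM. Its groups did not overlap, with the KO libraries nearly equal to each other. Its log2 fold change was -0.99 (SE 0.25, adjusted p = 0.0581, exact test 0.0049), and it passed without WT replicate 1 (-1.24, adjusted p = 0.0166) or KO replicate 3 (adjusted p = 0.0213) and not without any of the other 4 libraries, the smallest change being -0.73 without WT replicate 2 (adjusted p = 0.123).

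Cyp2a5, the coumarin hydroxylase of liver and nasal mucosa, measured 9.84, 1.28 and 1.71 CPM in the WT libraries and 1.28, 1.35 and 1.37 CPM in the KO libraries. Its WT mean rests on replicate 1, and the other WT libraries were at the KO level. The log2 fold change of -1.69 (SE 0.73, adjusted p = 0.167, exact test 0.0407) became -0.16 (adjusted p = 0.797) without WT replicate 1. Cyp2a5 shares 12.1% of its 100-base stretches with Cyp2a4, so its reads may be split or dropped between these copies. Cyp3a13, a Cyp3a enzyme expressed outside the liver, was the other positive difference, with 8.53, 14.2 and 7.02 CPM in the WT libraries and 36.2, 27.1 and 11.1 CPM in the KO libraries. KO replicate 3 fell within the WT range. Its log2 fold change was 1.32 (SE 0.43, adjusted p = 0.0945, exact test 0.0065), and it passed only without KO replicate 3 (1.68, adjusted p = 0.00273), with 1.01 (adjusted p = 0.250) without KO replicate 1.

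The other P450 of family 3, Cyp3a57, varied most among KO libraries, with 5.92, 7.40 and 7.11 CPM in WT and 1.59, 5.29 and 0.503 CPM in KO. The KO libraries were all below the WT libraries, by a wide margin in replicates 1 and 3 and narrowly in replicate 2. The log2 fold change was -1.42 (SE 0.63, adjusted p = 0.174), and it ran from -2.66 without KO replicate 2 (adjusted p = 0.0382) to -0.94 without KO replicate 3 (adjusted p = 0.096). Cyp2w1, Cyp3a13 and Cyp3a57 are the 3 tested P450 genes on chromosome 5, which also carries Gtf2ird1, at 4.90, 3.44 and 10.9 Mb from it, and the part of sequence linked to the targeted allele in their values was not tested.

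Compared per length of exon, those of the 26 tested P450 genes with the highest level in WT lip were epidermal lipid enzymes. Outside the symbol rule, Cyp51 measured 40.6 ± 11.3 CPM per kilobase in WT and 64.1 ± 9.25 in KO libraries, and Cyp26b1 24.3 ± 1.59 and 14.2 ± 2.75. The ranks below leave such genes out. Cyp4f39, the fatty acid hydroxylase that makes the long chain hydroxy acids of barrier acylceramides, stood first with 41.0 ± 6.70 CPM per kilobase in WT and 37.8 ± 3.35 in KO libraries. Cyp2b19, the arachidonic acid epoxygenase of keratinocytes, stood second with 31.8 ± 8.16 and 24.4 ± 6.87 CPM per kilobase. Neither passed the test: Cyp4f39 measured 128, 95.0 and 128 CPM in the WT and 101, 104 and 119 CPM in the KO libraries (log2 fold change -0.12, SE 0.16, adjusted p = 0.643). Cyp2b19 measured 130, 168 and 100 CPM against 121, 115 and 68.9 CPM (log2 fold change -0.38, SE 0.26, adjusted p = 0.343). The groups overlapped for both genes.

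Next in WT per length came Cyp2f2 (18.0 ± 7.81 CPM per kilobase), Cyp2g1 (17.1 ± 10.4) and Cyp2s1 (14.0 ± 3.12), whose means differed by less than the spread between libraries. In the KO libraries Cyp2f2 ranked 10th at 4.19 ± 1.51, Cyp2g1 8th at 6.03 ± 1.40 and Cyp2s1 again 5th at 7.40 ± 0.789 CPM per kilobase, while Cyp3a13 moved from rank 14 to rank 3. Cyp2w1 moved from rank 10 to 20 and Cyp7b1 from 23 to 14 of the 26. Summed over the 26 genes, P450 transcripts made up 569, 591 and 546 CPM of the WT libraries and 467, 447 and 386 CPM of the KO libraries, without overlap. Cyp2b19, Cyp4f39 and Cyp2s1 together held 51.5% to 60.2% of the P450 counts in each library. The share of Cyp2f2 was 9.63%, 4.50% and 5.18% in the WT libraries and 1.40%, 1.55% and 3.11% in the KO libraries.

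**Figure D3:**
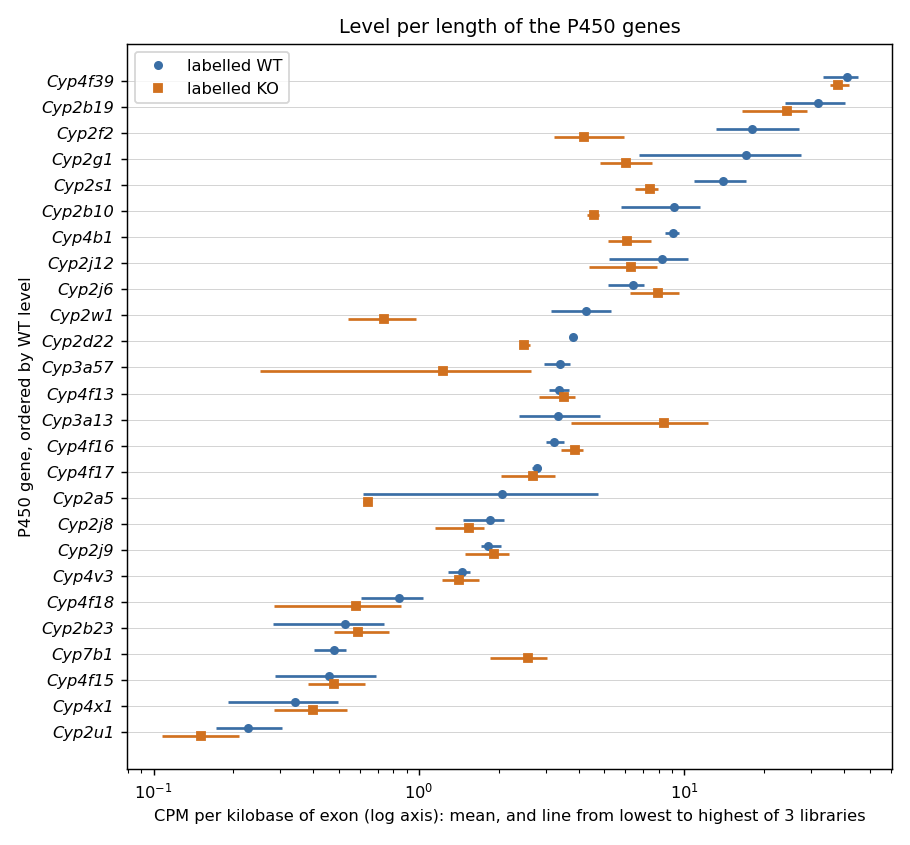
Mean level of each tested P450 gene in CPM per kilobase of exon (log axis) in WT and KO libraries, with a line from the lowest to the highest of the 3 libraries, ordered by the WT level. Cyp4f39 and Cyp2b19 stand at the top in both genotypes, and Cyp2f2, Cyp2w1, Cyp3a13 and Cyp7b1 are among the genes whose WT and KO points lie farthest apart.

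By family, the 4 genes that fell all belonged to family 2, in which 11 of the 14 tested genes had a negative log2 fold change (median -0.60). None of the 9 genes of family 4 passed by edgeR's quasi-likelihood or exact test. By DESeq2 1 of the 9, Cyp4b1, passed with an adjusted p of 0.0445, and the same gene was the 1 with an unadjusted p under 0.05. Log2 fold changes in family 4 ran from -0.59 to 0.26, with a median of -0.03. Within it, Cyp4b1, a hydroxylase of fatty acids and foreign compounds, was the gene whose groups did not overlap, KO below WT (log2 fold change -0.57, SE 0.18, adjusted p = 0.0888), and of the fits without 1 library it passed only without KO replicate 3 (-0.75, adjusted p = 0.00683), with -0.41 (adjusted p = 0.347) without KO replicate 2. The 4 Cyp2j genes, epoxygenases of polyunsaturated fatty acids, ran from -0.38 (Cyp2j12) to 0.31 (Cyp2j6), and their groups overlapped.

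The P450 genes of the chromosome 7 cluster, which spans 25802475 to 27133660, were negative for 6 of the 7 tested genes (median log2 fold change -0.99), and 2 of the 7 passed. In order along the chromosome these are Cyp2s1 (-0.92), Cyp2b10 (-0.99), Cyp2b23 (0.16), Cyp2b19 (-0.38), Cyp2g1 (-1.51), Cyp2a5 (-1.69) and Cyp2f2 (-2.11). The genes that passed are the outermost of the tested genes, which set the span given here, and a P450 gene below the filter lies beyond Cyp2f2. Without WT replicate 1 the log2 fold change of Cyp2a5 was -0.16. Over all tested genes 52.0% were negative and 6.47% passed, 2.09% lower. The other tested gene inside the span, Gm26707, which overlaps Cyp2s1, had a log2 fold change of -0.13 (SE 0.32, adjusted p = 0.816). In the Cyp4f cluster on chromosome 17 (32452723 to 32947402), whose enzymes hydroxylate leukotrienes and long chain fatty acids, the 5 tested genes ran from -0.12 to 0.26 (median 0.07), beside 0.16 to 0.33 for 3 zinc finger genes in the same span. None of these 8 genes passed by the quasi-likelihood test, the exact test or DESeq2, and 0 had an unadjusted p under 0.05. The difference between the clusters was not tested.

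**Figure D4:**
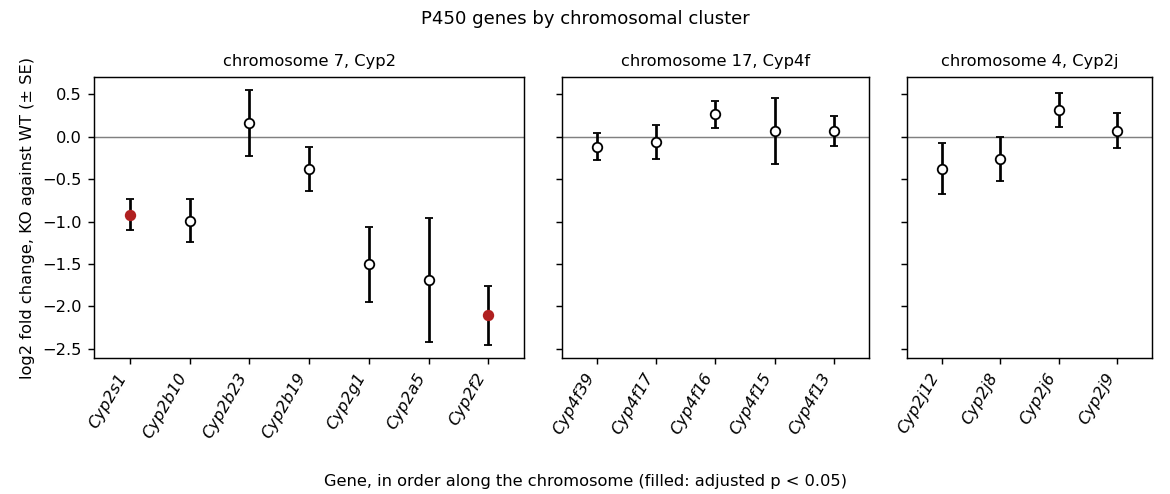
Log2 fold change (KO against WT, ± SE) of the tested P450 genes in their order along each chromosomal cluster, with filled points where the adjusted p was below 0.05. In the chromosome 7 cluster 6 of 7 points lie below 0 and the 2 filled points are the outermost tested genes, Cyp2s1 and Cyp2f2, and in the Cyp4f cluster the points lie between -0.12 and 0.26. The Cyp2a5 point rests on WT replicate 1.

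Of the 26 tested P450 genes, 18 reached 1 CPM in all 6 libraries and 8 in fewer, and none of the 8 did so in libraries of 1 genotype only. The 24 P450 genes below the filter held 1 to 140 counts in total over the 6 libraries, and 20 of them had at most 10 counts in every library. Among them, Cyp2r1, a vitamin D hydroxylase, came closest, with 1.09, 0.808 and 1.48 CPM in the WT libraries and 0.921, 0.921 and 0.549 CPM in the KO libraries. Cyp2e1, the ethanol-oxidising P450 of liver, measured 0.553 to 1.71 CPM in WT and 0.592 to 0.921 CPM in KO. Just inside the filter, Cyp2u1 measured 1.60, 1.06 and 0.899 CPM against 0.563, 0.723 and 1.10 CPM, and Cyp4f15 0.653, 1.57 and 0.899 CPM against 1.43, 0.986 and 0.869 CPM. These genes, on both sides of the filter, had overlapping groups.

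The P450 genes outside the rule gave 3 further genes that passed, all lower in KO. Cyp26b1, which clears retinoic acid, measured 137, 120 and 133 CPM in the WT libraries and 64.9, 70.8 and 92.9 CPM in the KO libraries (log2 fold change -0.77, SE 0.16, adjusted p = 0.0324). Cyp17a1, an enzyme of androgen synthesis, measured 9.47, 31.3 and 12.3 CPM against 5.68, 4.90 and 4.44 CPM (-1.82, SE 0.43, adjusted p = 0.0462), and WT replicate 2 was well above the other WT libraries. Without that library the log2 fold change of Cyp17a1 was -1.06 (adjusted p = 0.0499), and the call held in 3 of the 6 fits without 1 library. Cyp1a1, the classical target of the aryl hydrocarbon receptor, measured 46.0, 56.6 and 49.0 CPM against 25.2, 31.1 and 33.6 CPM (-0.75, SE 0.16, adjusted p = 0.0328). The KO libraries of these 3 genes were all below the WT libraries. Of the 6 fits without 1 library, the calls of Cyp26b1 and Cyp1a1 held only in the fit without KO replicate 3. Their log2 fold changes ran from -0.93 to -0.61 and from -0.84 to -0.58 over the 6. Of 12 tested genes in other P450 families, 10 were negative and 2 passed, both lower, where 2.09% of all tested genes passed lower. Cyp51 was 1 of the 2 positive genes, with 142, 236 and 160 CPM in the WT and 309, 305 and 236 CPM in the KO libraries. Its log2 fold change was 0.66 (SE 0.21, adjusted p = 0.0944, exact test 0.046). Summed over the genes of these families, levels overlapped, with 363, 472 and 385 CPM in WT and 444, 440 and 395 CPM in KO libraries. Cyp51 had the highest level of these genes in every library, so the sum does not describe the 10 negative genes. Taking the families whose symbol has 2 digits, a letter and a digit as members too would give 7 of 35 genes passed, 6 of them lower. The median log2 fold change would be -0.38.

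Partner and regulator lists covered electron donors and helpers, haem synthesis, haem breakdown, epoxide hydrolases, and receptors and regulators of P450 genes. Of their 41 tested genes, 2 passed (4.88%), close to the 6.47% of all tested genes. None of 10 tested electron donors and helpers passed by edgeR's quasi-likelihood test (median log2 fold change -0.23, 9 of 10 negative), including Por, the NADPH oxidoreductase that serves all microsomal P450 enzymes (-0.02), and Cyb5r3 (-0.58), and 1, the progesterone receptor membrane component Pgrmc2 (-0.50), had an unadjusted p under 0.05 and passed by DESeq2. None of 8 genes of haem synthesis passed by that test, 2 had an unadjusted p under 0.05 and 1, Alad, passed by the exact test and by DESeq2. None of 4 genes of haem breakdown and 4 epoxide hydrolases passed by any of the 3 tests, with 0 and 2 genes at an unadjusted p under 0.05. Of 15 tested receptors and regulators of P450 genes, 2 passed, both higher in KO. Ahrr, the repressor of the aryl hydrocarbon receptor, measured 0.871, 0.765 and 0.540 CPM in the WT libraries and 2.97, 3.62 and 4.57 CPM in the KO libraries (log2 fold change 2.34, SE 0.28, adjusted p = 0.00251), and it reached the filter through the KO libraries alone. Nfe2l2, the regulator of the response to electrophiles, rose from 116 ± 10.3 to 238 ± 16.8 CPM (1.03, SE 0.13, adjusted p = 0.00307). The aryl hydrocarbon receptor gene Ahr itself had a log2 fold change of 0.29 (adjusted p = 0.220).

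The enzymes that work beside the lipid P450 genes had medians of the opposite sign to that of the P450 genes. Of 13 genes of acylceramide synthesis, the pathway that Cyp4f39 feeds, 10 were positive (median log2 fold change 0.56) and 3 rose, namely the ceramide synthase Cers3 (1.38, SE 0.21, adjusted p = 0.00745), the lipid transporter Abca12 (1.79, SE 0.34, adjusted p = 0.0231) and the lipase co-activator Abhd5 (0.81, SE 0.13, adjusted p = 0.011). Of 11 tested genes of arachidonic acid release and cyclooxygenase metabolism, 8 were positive (median 0.48) and 2 rose, the prostaglandin synthases Ptges (0.68, SE 0.16, adjusted p = 0.044) and Hpgds (1.17, SE 0.26, adjusted p = 0.0414). Over all tested genes 4.38% rose. The 3 negative genes of the acylceramide list were Elovl1 (-0.15), Slc27a4 (-0.49) and Elovl4 (-0.38), and none of them passed. Elovl4, the most abundant gene of that list, was lower in every KO library than in every WT library. Summed over the 13 acylceramide genes, levels overlapped, with 3838, 3430 and 3724 CPM in WT and 4376, 3809 and 3476 CPM in KO libraries. In the 6 fits without 1 library the call held in 6 for Cers3, 3 for Abhd5, 2 for Abca12 and 1 each for Ptges and Hpgds.

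**Figure D5:**
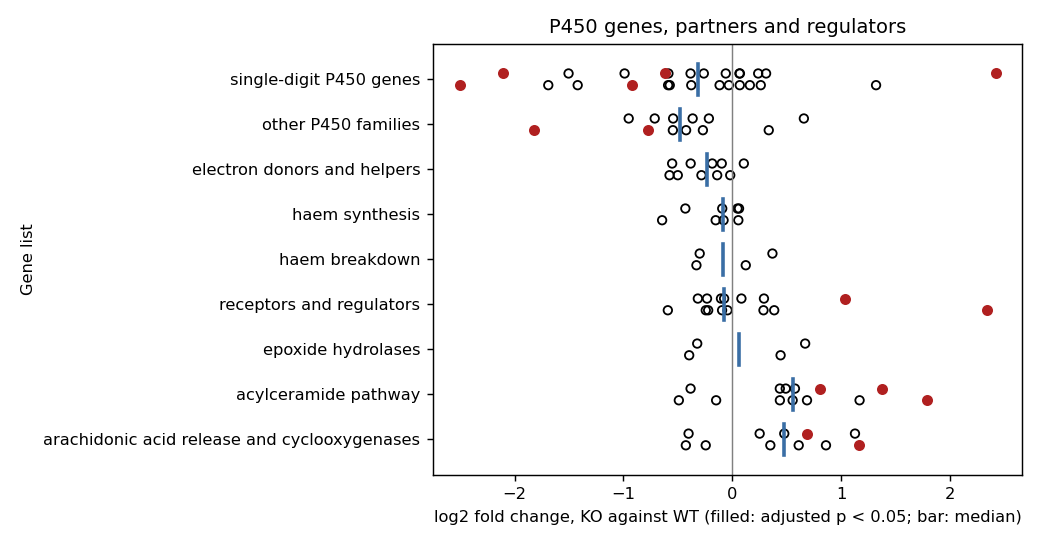
Log2 fold change (KO against WT) of each tested gene in the P450 set and in the lists of P450 partners, regulators and lipid enzymes, with a bar at the median of each list and filled points where the adjusted p was below 0.05. The median of the P450 genes is -0.32, and those of the acylceramide and arachidonic acid lists are 0.56 and 0.48.

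Markers of the cell types of the lip were compared between the labelled genotypes in the same way. Of all tested genes 52.0% were negative and 6.47% passed, 4.38% higher and 2.09% lower. The sums given below did not overlap for hair follicle, skeletal muscle and suprabasal keratinocyte markers. They overlapped for sebaceous gland markers and for stressed or mucosal keratinocyte markers. All 9 tested hair follicle markers were negative and 1, Hoxc13, fell. Their summed level was 7781 to 9813 CPM in the WT libraries and 5284 to 6738 CPM in the KO libraries. Sebaceous gland markers were negative for 10 of 12, with 1 called, Awat1, and sums of 6581 to 7777 CPM in WT and 4706 to 6787 CPM in KO. Skeletal muscle markers were negative for 8 of 8, with 1 called, Tnnt3, and sums of 11424 to 14430 and 5667 to 8841 CPM. Suprabasal keratinocyte markers were positive for 7 of 8, with 1 called, Ivl, and sums of 20216 to 24750 and 31113 to 47182 CPM, while basal keratinocyte markers were positive for 3 of 6 with none called by the quasi-likelihood test and 1, Itga6, by DESeq2. Of 8 markers of stressed or mucosal keratinocytes 6 were positive and 2 rose, Krt16 and Sprr1b, with sums of 4096 to 10473 CPM in WT and 6148 to 9673 CPM in KO. The 2 negative ones were Krt13 and Krt4 (log2 fold change -4.53 and -3.43), in which WT replicate 1 was far above the other libraries. They did not pass by the quasi-likelihood test (adjusted p = 0.110 and 0.189) and passed by the exact test of edgeR (0.0025 and 0.031). Liver markers never exceeded 20 counts in a library. Adipocyte markers were negative for 6 of 6, with 1 called, Fabp4. Fibroblast markers were negative for 6 of 6, endothelial markers for 5 of 5, macrophage markers for 4 of 5 and T cell markers for 0 of 3, with none called by the quasi-likelihood test and 0, 1, 1 and 1 gene at an unadjusted p under 0.05. By the exact test and by DESeq2 the T cell marker Cd4 passed, higher in KO. The part of cell type makeup in the P450 differences was not tested.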

How the data were processed

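RNA from the top lip of 3 WT and 3 KO mice was sequenced as polyadenylated mRNA. The authors aligned the reads to GRCm38 with TopHat2 (2.0.8) and Bowtie2 (2.1.0) and deposited raw counts of uniquely mapped reads per gene from HTSeq. Strand use and counting mode are not given in the sources used here. Groups came from the genotype labels, and nothing further describes how replicates were housed or batched, so p-values measure the spread between these mice. Genes reaching 1 CPM in 3 or more of the 6 libraries were normalised by TMM and tested together with the edgeR (4.0.16) quasi-likelihood test, with Benjamini-Hochberg adjustment over 15009 genes and a threshold of 0.05. Every fold change is on the fitted log2 scale. Levels per length used exon lengths from GENCODE M21 (GRCm38), and promoter windows came from RefSeq. Any tested P450 gene could be named, with all library values for those called by either edgeR test or among the 5 highest per length, and listed genes if called, with named electron donors. Cyp3a57, Cyp2u1, Cyp4f15, Cyp2r1, Cyp2e1, Cyp51, Ahr, Alad, Elovl1, Elovl4, Slc27a4, Itga6, Krt13, Krt4 and Cd4 were named outside this rule after their values were seen. The authors' raw counts covered 26814 symbols, and no row lacked a gene. Alternatives used the edgeR exact test, DESeq2 (1.42.0), limma-voom (3.58.1), other scalings and filters, a replicate block and leaving out each library. The scripts were tested on simulated data. The members and lists were chosen with earlier results of these data known.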

Additional observations from a re-analysis of the deposited data

How the results depend on the processing

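Of 602 comparisons of a named gene with its value under 11 alternatives or without 1 of the 6 libraries, 516 kept direction and side of the threshold, 59 lost the call, 16 gained one and 11 reversed. The reversals were Cyp4v3 without the filter (0.020) and, on leaving out a library, Cyp2b23 (-0.16 to 0.55), Cyp4f15 (-0.19 to 0.21), Cyp4f17 (-0.15 to 0.11), Cyp4v3 (-0.16 to 0.12) and Cyp4x1 (-0.063 to 0.60), none of which passed. Cyp2w1, Cyp2f2, Cyp2s1 and Cyp7b1 passed under all 11 alternatives and Cyp2d22 under 6. With the exact test and with DESeq2, 2238 and 2568 genes passed in place of 971, 9 and 9 P450 genes in place of 5, 4 and 5 genes of other P450 families in place of 2, and 12 and 16 partner genes in place of 7. Partner genes here are 65 tested genes, namely the 41 of the partner and regulator lists above with the acylceramide and arachidonic acid lists. Other P450 families gave 1 call with limma-voom, DESeq2 size factors, library size alone, no filter, at least 10 counts, and the replicate block. Without the filter the P450 median was -0.14. Leaving out 1 library gave 226 to 4891 genes, 2 to 9 P450 genes, 0 to 6 genes of other families, 2 to 30 partner genes and a P450 median of -0.35 to -0.13, with the highest counts without KO replicate 3. The cause was not tested. Same-numbered KO and WT libraries correlated at -0.19, 0.32 and 0.34 in their deviations from the group means, and unlike-numbered ones at -0.52 to 0.43. The labels state no pairing, and the numbers were not taken as pairs. The replicate block gave 797 genes and 4 P450 genes, without Cyp2d22, with a P450 median of -0.32 and 5 partner genes. With 3 libraries a genotype, adjusted p-values near 0.05 depend on single libraries.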
